A study of Mus musculus with 20 samples.

Results

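Endothelial cells sorted from E0771 tumours of Tie2Cre_H2Abf hosts were compared with those of TCRKO hosts, 7 of the 20 libraries of the study. The members are the 4 libraries labelled Tie2Cre_H2Abf and the 3 labelled TCRKO, taken by their labels alone. In Tie2Cre_H2Abf hosts a floxed H2-Ab1 gene (H2Ab fl/fl) is combined with Tie2Cre, a Cre recombinase driven by the Tie2 promoter, which is active in endothelial cells and in many blood cells. In TCRKO hosts a T cell receptor gene is deleted, and the labels do not say which chain. The submitters class both hosts as deficient in CD4+ T cells, so this comparison asks how the endothelium differs between 2 such hosts. One lacks the class II beta chain in the Tie2 lineage itself. The other lacks a T cell receptor gene, so the parts of the 2 deletions cannot be told apart here. Whether the 2 hosts also differ in CD8+ T cells was not tested. Both groups are on the C57BL/6J strain, and the age and sex of the animals are not given. E0771 is a mouse mammary carcinoma line and was placed in the mammary fat pad. Tumours were taken at 500 mm3, and the cells were enriched and sorted for CD31 (Pecam1), a surface protein of endothelium.

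MHC class II molecules are pairs of an alpha and a beta chain that present peptides to CD4+ T cells, and H2-Ab1 encodes the beta chain of I-A, the class II molecule of this strain. Interferon-gamma, a cytokine of T and NK cells, acts through receptor-bound JAK kinases and induces class II genes by way of the transactivator Ciita, together with guanylate-binding proteins, immunity-related GTPases and the chemokines Cxcl9 and Cxcl10. Endothelial cells respond to it, and tumour vessels also carry adhesion molecules such as Vcam1 and the selectins, by which leukocytes leave the blood.

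In Tie2Cre_H2Abf endothelium H2-Ab1 fell 19.1-fold from its TCRKO level, and 5 genes rose: Gbp2, Wars, Serpina3f, Serping1 and Slamf8. The 5 higher calls are 0.0336% and the 1 lower call 0.00672% of the 14875 genes tested, with the quasi-likelihood test of edgeR and a Benjamini-Hochberg adjusted p under 0.05. At an unadjusted p under 0.05 there were 383 higher genes (2.57%) and 334 lower genes (2.25%). The 4 Tie2Cre_H2Abf values lay above all 3 TCRKO values for 986 genes (6.63%) and below them for 788 (5.3%). The estimate was above 0 for 47.2% of genes, and the median log2 change over all genes was -0.04. Changes are Tie2Cre_H2Abf minus TCRKO on the log2 scale with their standard error, and levels are CPM, counts scaled to a common effective library size by TMM factors.

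Total counts of the 7 libraries ran from 4374594 to 11478902, of which ribosomal-RNA-like and other abundant RNA took 72.3% to 86.7%. A floor of 3 counts corresponded to 0.356 to 0.682 CPM, and such floors cover counting error only. TCRKO_9767 and Tie2Cre_H2Abf_9583 stood apart with the largest satellite shares, 2.53% and 2.08%, and with counts in 18878 and 18777 genes. The library numbers in the labels also separate the groups, all beginning 95 in Tie2Cre_H2Abf and 97 in TCRKO, so whatever these numbers stand for cannot be told apart from the host. The labels do not tie a library to an animal, and p-values therefore cover only how these samples vary, which may be technical. The endothelial markers Pecam1, Cdh5, Kdr, Tek and Erg were present in all 7 libraries. Together they were lower in all 3 TCRKO libraries, and list medians are therefore also given with the libraries scaled by these 5 genes. This moves the median of all genes from -0.04 to -0.81. A list median under this scaling is therefore read against -0.81 and not against 0.

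The upstream sequences of Gbp2, Serpina3f, Serpina3g, Slamf8 and Tgtp1 are shown because these genes are among those with the smallest p and hold letters that interferon-activated factors bind. The promoters of Cxcl9, Ubd and Col15a1, also among the genes with small p, hold neither set of letters. The sequences are RefSeq's on GRCm38.p6, read 5′ to 3′ on the gene's strand up to its start or to the end of the match. Capitals mark 2 sets of letters: GAS, the gamma-activated site, written TTCNNNGAA, and ISRE, bound by interferon regulatory factors and written GAAANNGAAA, on either strand. The GAS letters read alike on both strands and were counted once. Upstream here means upstream of the RefSeq start. In the gene positions given for GRCm38, Gbp2 already begins at 142620602 and Tgtp1, on the minus strand, at 48994172. By those positions the marked Gbp2 letters and the whole Tgtp1 stretch lie inside the gene.
Gbp2, chr3:142620413-142620613, plus strand, ISRE on the opposite strand: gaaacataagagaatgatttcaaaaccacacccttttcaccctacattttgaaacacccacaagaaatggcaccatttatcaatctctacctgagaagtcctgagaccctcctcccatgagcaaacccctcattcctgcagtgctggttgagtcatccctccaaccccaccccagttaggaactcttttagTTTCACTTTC
Serpina3f, chr12:104214294-104214543, plus strand, the first of 2 starts, GAS: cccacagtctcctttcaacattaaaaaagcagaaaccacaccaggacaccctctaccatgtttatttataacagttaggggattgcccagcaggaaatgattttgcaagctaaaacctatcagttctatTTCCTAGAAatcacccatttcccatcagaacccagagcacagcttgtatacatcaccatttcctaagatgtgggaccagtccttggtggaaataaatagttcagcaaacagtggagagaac
Serpina3g, chr12:104235897-104236146, plus strand, GAS: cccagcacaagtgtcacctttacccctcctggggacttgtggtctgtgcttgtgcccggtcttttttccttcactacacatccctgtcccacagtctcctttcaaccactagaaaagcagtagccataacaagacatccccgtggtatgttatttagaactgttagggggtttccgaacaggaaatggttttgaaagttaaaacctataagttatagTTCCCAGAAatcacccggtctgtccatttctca
Slamf8, chr1:172590569-172590818, minus strand, ISRE on the opposite strand: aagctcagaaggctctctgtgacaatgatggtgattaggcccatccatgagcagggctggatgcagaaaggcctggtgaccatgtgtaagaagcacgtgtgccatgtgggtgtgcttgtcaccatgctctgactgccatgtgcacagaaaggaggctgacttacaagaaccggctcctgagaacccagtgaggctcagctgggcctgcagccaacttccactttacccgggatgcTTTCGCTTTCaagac
Tgtp1, chr11:48992314-48992496, minus strand, GAS and then ISRE: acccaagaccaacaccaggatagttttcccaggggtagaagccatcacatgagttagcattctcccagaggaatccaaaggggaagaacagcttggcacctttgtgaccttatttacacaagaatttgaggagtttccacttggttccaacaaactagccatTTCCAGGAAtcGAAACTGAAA

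The ISRE letters of Gbp2 lie 59 to 50 bases before the RefSeq start, and those of Slamf8 15 to 6 bases before it. The GAS letters lie 121 to 113 bases before the start in Serpina3f, 33 to 25 in Serpina3g and 88 to 80 in Tgtp1. In Tgtp1 the ISRE letters follow 77 to 68 bases before the start. Over the 250 bases before and 50 after the start, 8.3% of all 32851 promoters hold the GAS letters, 3.44% the ISRE letters and 11.3% either, and the matches overlap in 24. Of the 31 genes of the interferon-gamma list 19 were in the promoter table by symbol, and 15 of these 19 hold either motif at a start, with GAS in 10 and ISRE in 11. The type I interferon list, whose median log2 change was -0.07, held ISRE nearly as often, in 11 of 20, and either motif in 12, with GAS in 3. Of the class II list 2 of 8 and of the venous list 1 of 9 hold either motif. For the ribosomal protein genes, which lay on the other side of the comparison, 8 of 20 hold either motif, with ISRE in 7. The shares over all promoters count promoters, while the list numbers count genes with a match at any start, so the units differ. The 19 interferon-gamma genes have 22 promoters. A match describes the letters in this window and is not shown to be a site. The promoters of Wars, Serping1 and H2-Ab1 were not used here.

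H2-Ab1 (chromosome 17, 34257689 to 34269419, GRCm38) was read first, since it is the gene targeted in Tie2Cre_H2Abf. Values are given here and below in the order Tie2Cre_H2Abf_9576, Tie2Cre_H2Abf_9582, Tie2Cre_H2Abf_9583 and Tie2Cre_H2Abf_9589, then TCRKO_9765, TCRKO_9766 and TCRKO_9767. H2-Ab1 stood at 6.37, 1.19, 0.712 and 4.34 CPM against 66.4, 59.3 and 56.2 CPM. The 4 values are 3.15 ± 2.68 CPM (SD, n = 4) and the 3 values 60.6 ± 5.25 CPM (SD, n = 3), and the groups are far apart. The log2 change was -4.25 ± 0.59, adjusted p = 0.00214 in edgeR's quasi-likelihood test. It was the 1 gene called in every one of the 18 alternatives, from -5.07 to -3.48, with a largest adjusted p of 0.0357. All 4 Tie2Cre_H2Abf libraries still held H2-Ab1 counts, 36, 7, 4 and 30. Which exons the floxed allele removes is not in the labels.

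The other class II chains did not follow H2-Ab1 down. H2-Aa, the alpha chain that pairs with H2-Ab1, stood at 141, 109, 86.8 and 83.5 CPM against 71.1, 33.3 and 14.3 CPM. Every Tie2Cre_H2Abf value lies above every TCRKO value, with a log2 change of 1.40 ± 0.53 that did not pass (adjusted p = 0.989, edgeR). H2-Eb1, an E beta chain, stood at 78.4, 85, 43.6 and 68.5 CPM against 27.2, 21.1 and 13.4 CPM (log2 change 1.74 ± 0.54, adjusted p = 0.818, edgeR). Cd74, the invariant chain that guides class II molecules to the endosome, stood at 960, 496, 333 and 768 CPM against 226, 130 and 88.7 CPM. Its log2 change was 2.11 ± 0.55, again without passing (adjusted p = 0.391, edgeR). So within each Tie2Cre_H2Abf library H2-Ab1 lay below every TCRKO value while its partner H2-Aa lay above every TCRKO value.

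**Figure D1:**
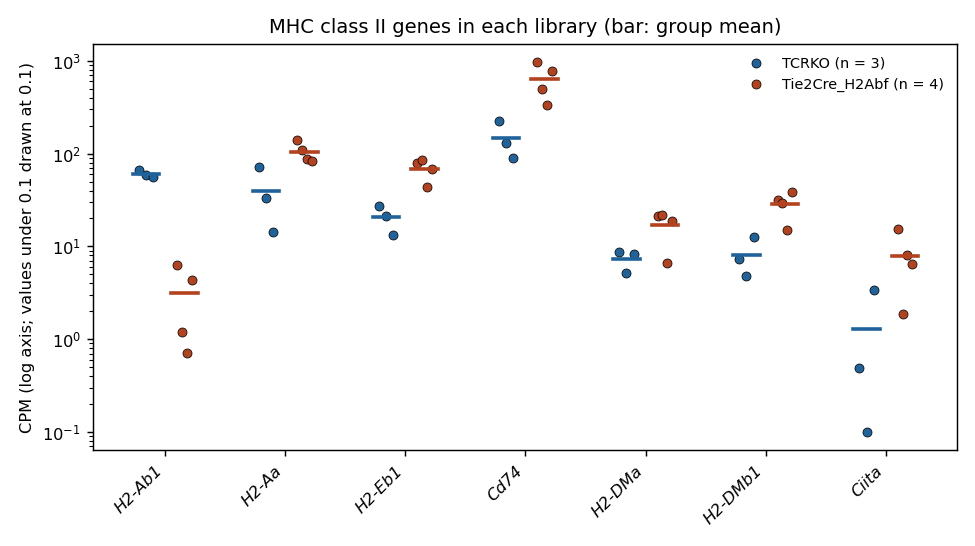
Levels of 7 class II genes in CPM (log axis) in each library, with TCRKO in blue, Tie2Cre_H2Abf in red and a bar at the group mean. H2-Ab1 lies at 0.712 to 6.37 CPM in Tie2Cre_H2Abf and at 56.2 to 66.4 CPM in TCRKO, while H2-Aa, H2-Eb1 and Cd74 lie higher in all 4 Tie2Cre_H2Abf libraries than in any TCRKO library.

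Length-scaled values (TPM) allow the 2 chains to be compared with each other. There were 0.0983, 0.009, 0.0181 and 0.0716 H2-Ab1 TPM per H2-Aa TPM in Tie2Cre_H2Abf, against 0.781, 1.82 and 5.25 in TCRKO. The highest ratio with the deletion is below the lowest without it, and the exact two-sided permutation p on the log2 ratio was 0.0571. This test doubles the one-sided p, and 0.0571 is the smallest value that it can give with 35 splits. In the other 4 backgrounds the ratio ran from 0.52 in a WT library to 1.69 in another. TCRKO_9766 and TCRKO_9767 therefore have more H2-Ab1 relative to H2-Aa than any library outside TCRKO, and TCRKO_9767 does so with 63 H2-Aa counts. Of the class II genes that act after assembly, the peptide exchange chain H2-DMb1 stood at 32, 29.1, 14.9 and 38.1 CPM against 7.27, 4.75 and 12.5 CPM. H2-DMa, its partner, overlapped between the groups, at 6.58 to 21.7 CPM against 5.23 to 8.75 CPM. The transactivator Ciita was low in both groups, at 15.4, 1.86, 8.01 and 6.51 CPM against 0.493, 0 and 3.41 CPM, and Tie2Cre_H2Abf_9582 lies below TCRKO_9767. H2-DMb1, H2-DMa and Ciita were chosen after their values were seen, and none passed (adjusted p 0.989, 0.995 and 0.989, edgeR).

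Of the 10 tested genes of the class II list, 8 had a higher estimate, 6 of them at an unadjusted p under 0.05, and 5 lay wholly above TCRKO, where 2.57% and 6.63% of all genes did so. H2-Ab1 was the 1 that passed the adjusted test, downwards. The list's median log2 change was 1.77, and 1.01 with the libraries scaled by endothelial markers. Cathepsin S (Ctss), a protease that trims Cd74 and is abundant in macrophages, had a negative estimate of -1.28 and stood at 6.02, 62.7, 35.4 and 18.8 CPM against 127, 35 and 62.3 CPM. In bulk libraries fewer cells of a type and less RNA per cell cannot be told apart, here and in what follows.

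The deletion behind the TCRKO label could not be read in sorted endothelium. Trac, the constant region of the T cell receptor alpha chain, had 0, 4, 10 and 0 counts in Tie2Cre_H2Abf and 5, 9 and 3 counts in TCRKO. The beta chain genes Trbc1 and Trbc2 reached at most 0.713 and 1.25 CPM in any of the 7 libraries. Cd3e, a chain of the receptor complex, had 11 counts in Tie2Cre_H2Abf_9583, 1 count in TCRKO_9765 and 0 elsewhere. Cd4 stood at 0, 0, 3.74 and 0 CPM against 4.56, 4.28 and 1.14 CPM. Loss of the receptor was not detectable at this depth. Ifng itself had 0 counts in all 7 libraries, which allows up to 0.125 CPM over the Tie2Cre_H2Abf libraries and 0.143 CPM over the TCRKO libraries.

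Among the genes that rose, Gbp2, an interferon-inducible guanylate-binding protein (chromosome 3, 142620602 to 142638008), stood at 398, 169, 249 and 406 CPM against 65.8, 62.5 and 29.6 CPM. The log2 change of 2.54 ± 0.42, or 5.80-fold, had adjusted p = 0.0125 (edgeR). Wars, the cytosolic tryptophanyl-tRNA synthetase, which interferon-gamma induces (chromosome 12, 108860030 to 108894174), stood at 299, 120, 154 and 326 CPM against 31.7, 54.8 and 35 CPM. Wars had a log2 change of 2.47 ± 0.47 (adjusted p = 0.0492, edgeR). In both genes Tie2Cre_H2Abf_9576 and Tie2Cre_H2Abf_9589 are the higher pair and Tie2Cre_H2Abf_9582 the lowest of its group, and no value overlaps TCRKO.

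Serpina3f, a serine protease inhibitor of a family that expanded in mice, stood at 90.5, 31.3, 41.6 and 60.1 CPM against 1.72, 0.119 and 0.682 CPM (chromosome 12, 104214544 to 104221129). The log2 change was 6.01 ± 1.04 with adjusted p = 0.0179 (edgeR), from 18 TCRKO counts in all. Serpina3g, its neighbour on the chromosome, stood at 104, 62, 45.6 and 127 CPM against 9.11, 9.15 and 4.09 CPM and missed the threshold narrowly (log2 change 3.49 ± 0.68, adjusted p = 0.0557, edgeR). The Serpina3 genes are near-identical copies, so how RSEM shared reads between them is uncertain. Serping1, the C1 inhibitor of the complement and contact systems (chromosome 2, 84765387 to 84775444), stood at 230, 27.9, 26 and 205 CPM against 0.985, 8.43 and 3.18 CPM. This is a log2 change of 4.85 ± 0.80 with adjusted p = 0.0125 (edgeR). Again Tie2Cre_H2Abf_9576 and Tie2Cre_H2Abf_9589 are the high libraries, and the other pair still lies above the highest TCRKO value.

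Slamf8, a SLAM-family surface receptor known from myeloid cells (chromosome 1, 172581758 to 172590568), had 31, 36, 88 and 74 counts against 1, 0 and 0. It lies under the level set for naming and is named after its values were seen because it passed (adjusted p = 0.0492, edgeR). Per effective library size its summed counts were 199 times as high, with an exact 95% counting interval of 35.4 to 7900. The interval is wide because TCRKO held 1 count in all.

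How far these calls hold depends on the libraries. Gbp2 and Serpina3f passed in 12 of the 18 alternatives, Serping1 in 11, Wars in 8 and Slamf8 in 5. No gene was called higher when TCRKO_9765, TCRKO_9767 or Tie2Cre_H2Abf_9576 was left out, and 1, Serping1, when TCRKO_9766 was left out. Without both TCRKO_9767 and Tie2Cre_H2Abf_9583 none was called higher, at 194 genes with an unadjusted p under 0.05. The direction stayed: over the 18 alternatives the log2 change ran from 1.79 to 2.73 for Gbp2, 1.66 to 2.76 for Wars, 5.29 to 7.26 for Serpina3f and 4.0 to 5.92 for Serping1. Other tools called more, with 70 higher genes in DESeq2 and 58 in limma-voom.

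**Figure D2:**
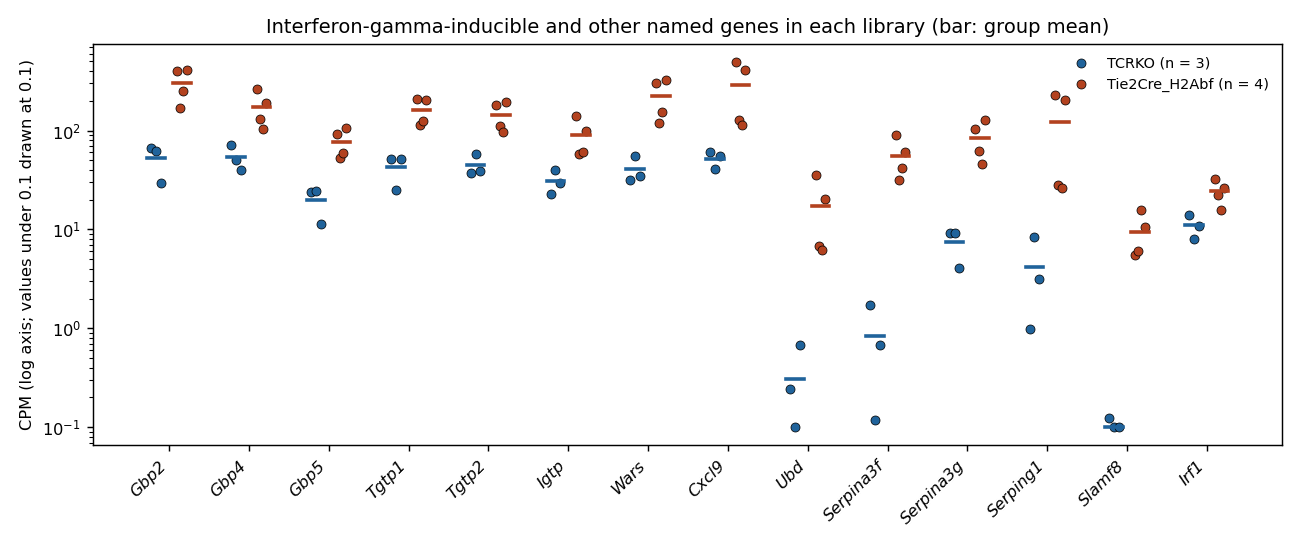
Levels of 14 interferon-inducible and other named genes in CPM (log axis; values under 0.1 at 0.1) in each library, with a bar at the group mean. The 14 genes were chosen by small p or after their values were seen, and the groups do not overlap in any of them. Of the 30 tested interferon-gamma list members 15 lie wholly above TCRKO, against 6.63% of all genes. The gap is widest for Slamf8 and Serpina3f, which reach at most 0.123 and 1.72 CPM in TCRKO.

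Genes of the interferon-gamma response lay higher as a group. Of 30 tested genes of the list, 29 had an estimate above 0, against 47.2% of all genes, and Gbp2 and Wars passed the adjusted test. At an unadjusted p under 0.05 there were 19 higher and 0 lower members, against 2.57% and 2.25% of all genes. In 15 members all 4 values lay above TCRKO and in 0 below, against 6.63% and 5.3%. The median log2 change was 1.14, and 0.38 with the libraries scaled by endothelial markers. The gap to the median of all genes was 1.18 and 1.19. This scaling can hardly change such a gap, which was 0.82 and 0.79 for the class I list. The range ran from -0.09 for Gbp9 to 6.06 for Ido1, an enzyme with at most 15 CPM in any library. The members were listed with earlier results of these data known.

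The guanylate-binding proteins, large GTPases that attack pathogen vacuoles, were uneven. Gbp5 stood at 91.2, 52.3, 58.7 and 106 CPM against 24.1, 24.4 and 11.4 CPM, a log2 change of 1.95 ± 0.50. Gbp4 stood at 264, 132, 104 and 189 CPM against 70.8, 50.6 and 40.2 CPM, a change of 1.67 ± 0.40. Gbp6 had a change of 2.11 ± 0.57 and Gbp10, with 18 TCRKO counts in 1 library, one of 4.56 ± 1.22. Gbp7 and Gbp3 had estimates of 0.72 and 0.83 with overlapping groups, and Gbp9 lay at 32.2 to 46.9 CPM against 32.9 to 48.8 CPM. None of these 7 passed (smallest adjusted p 0.243, edgeR), and reads of these paralogs are uncertain.

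The immunity-related GTPases act with them in defence inside the cell. Tgtp1 stood at 208, 114, 124 and 204 CPM against 52, 25.3 and 52.1 CPM, a log2 change of 1.92 ± 0.43 (adjusted p = 0.202, edgeR). Its near-copy Tgtp2 had a change of 1.70 ± 0.40 and Igtp one of 1.54 ± 0.45, and both lay wholly above TCRKO. Irgm1 stood at 143, 125, 104 and 199 CPM against 52.5, 57.6 and 86.8 CPM, with an estimate of 1.12. Irgm2, whose groups overlap, had one of 1.10 and Iigp1 one of 1.06. Ubd, an interferon-inducible ubiquitin-like protein, had 202, 40, 35 and 139 counts against 2, 0 and 3. Gbp4, Gbp5, Gbp6, Gbp10, Tgtp2, Igtp and Ubd are named after their values were seen.

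Irf1, a transcription factor induced early by interferon, stood at 32.4, 22.4, 15.8 and 26.2 CPM against 13.9, 8.08 and 10.9 CPM, a log2 change of 1.14 ± 0.54 (adjusted p = 0.989, edgeR). Jak1 had an estimate of 0.74 and Jak2 one of 1.38, and Il6st, the shared receptor chain of the interleukin 6 family, one of 1.05. For the 20 tested interferon receptor and JAK-STAT genes the median was 0.32, with 14 estimates above 0, and -0.48 with scaling by endothelial markers. The gap to the median of all genes was 0.36 and 0.33. Negative regulators fall among these genes, and Socs1 was too low to be tested, with at most 0.708 CPM.

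Genes of the type I interferon response lay otherwise. Of 28 tested genes 12 had a higher estimate, 1 was higher and 1 lower at an unadjusted p under 0.05, and the median was -0.07, close to that of all genes. Zbp1, a nucleic acid sensor, stood at 49.2, 47.9, 31.7 and 52.5 CPM against 25.3, 13.1 and 24.3 CPM. Mx1, an antiviral GTPase, stood at 4.25, 12.5, 4.09 and 5.93 CPM against 8.99, 19 and 28.4 CPM. Ifih1, which senses double-stranded RNA, had an estimate of 0.97, and Oas1b one of -1.07. None of the 4 passed, and the difference between the 2 interferon lists was not tested.

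Class I antigen presentation lay higher, by less. All 19 genes of the list were tested, 16 had a higher estimate, 5 had an unadjusted p under 0.05 and 7 lay wholly above TCRKO, against 47.2%, 2.57% and 6.63% of all genes. The median was 0.78, and -0.02 when scaled by endothelial markers. The class Ib gene H2-Q7 stood at 610, 452, 377 and 556 CPM against 224, 184 and 159 CPM, a log2 change of 1.40 ± 0.34 (adjusted p = 0.243, edgeR). H2-Q6 and H2-Q4 had estimates of 1.39 and 1.2, and these Q genes are near-copies whose reads are uncertain. Tap1, a chain of the peptide transporter, stood at 159, 135, 121 and 207 CPM against 53.5, 104 and 71.6 CPM.

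Of the chemokines, Cxcl9, which draws CXCR3-bearing T cells, stood at 490, 128, 114 and 411 CPM against 60, 41 and 55 CPM. Its log2 change was 2.46 ± 0.56 (adjusted p = 0.203, edgeR), and Tie2Cre_H2Abf_9576 and Tie2Cre_H2Abf_9589 were far above the other pair. Cxcl10, a ligand of the same receptor, overlapped, at 191, 140, 66.9 and 228 CPM against 52.5, 108 and 58.2 CPM. Cx3cl1, a membrane-bound chemokine, stood at 54.2, 13.9, 16.2 and 64.6 CPM against 7.27, 5.82 and 19.1 CPM, with 2 libraries below TCRKO_9767. Cxcl12 showed the same pair, at 237, 45.6, 54.1 and 208 CPM against 79.2, 50 and 37.7 CPM. Of 13 tested chemokine genes 10 had a higher estimate, 5 at an unadjusted p under 0.05, 0 passed and 2 lay wholly above TCRKO. Of all genes 47.2% had a higher estimate, 2.57% were higher at that p and 6.63% lay wholly above, so the 2 chemokines are not far from the background. The median was 1.29, and 0.51 with endothelial scaling.

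Vcam1, the ligand of integrin VLA-4 on leukocytes, stood at 123, 47.4, 61 and 135 CPM against 22.8, 14.4 and 18.9 CPM. Its log2 change was 2.29 ± 0.55 (adjusted p = 0.243, edgeR). Selp, the P-selectin stored with von Willebrand factor, stood at 72.9, 62.3, 74.9 and 99.4 CPM against 34.5, 12.2 and 27.5 CPM, a change of 1.65 ± 0.50. Sele, E-selectin, was at most 6.91 CPM in Tie2Cre_H2Abf and had 1 count in the whole of TCRKO. Podxl, a sialomucin, had an estimate of 0.95. Of the 18 adhesion genes 16 had a higher estimate, 4 at an unadjusted p under 0.05, and 8 lay wholly above TCRKO, against 47.2%, 2.57% and 6.63% of all genes. The median was 0.75, and -0.01 when scaled by endothelial markers.

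Venous markers gave one of the larger medians among vessel lists. Vwf, von Willebrand factor, stood at 462, 421, 851 and 522 CPM against 132, 134 and 89.6 CPM, a log2 change of 2.25 ± 0.51 (adjusted p = 0.202, edgeR). Unlike the interferon genes, it was highest in Tie2Cre_H2Abf_9583. The decoy receptor Ackr1, a venular marker, had an estimate of 1.35 ± 0.61, at 11.2, 18.8, 21.4 and 23.2 CPM against 8.25, 6.65 and 7.05 CPM, and was 1 of 5 venous genes wholly above TCRKO (6.63% of all genes). Of 12 venous genes 10 had a higher estimate and 6 an unadjusted p under 0.05, against 47.2% and 2.57% of all genes. The list had a median of 1.16, 0.46 with endothelial scaling and 0.79 without TCRKO_9767. Nr2f2, the transcription factor of venous identity, did not share this, at 11.3, 3.05, 3.92 and 4.63 CPM against 6.53, 3.33 and 11.1 CPM. The list members Nrp2 and Cpe had estimates of 0.15 and -1.42. Selp, Vcam1 and Icam1 are also in the adhesion list and Il6st in the JAK-STAT list, so these lists are not independent.

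**Figure D3:**
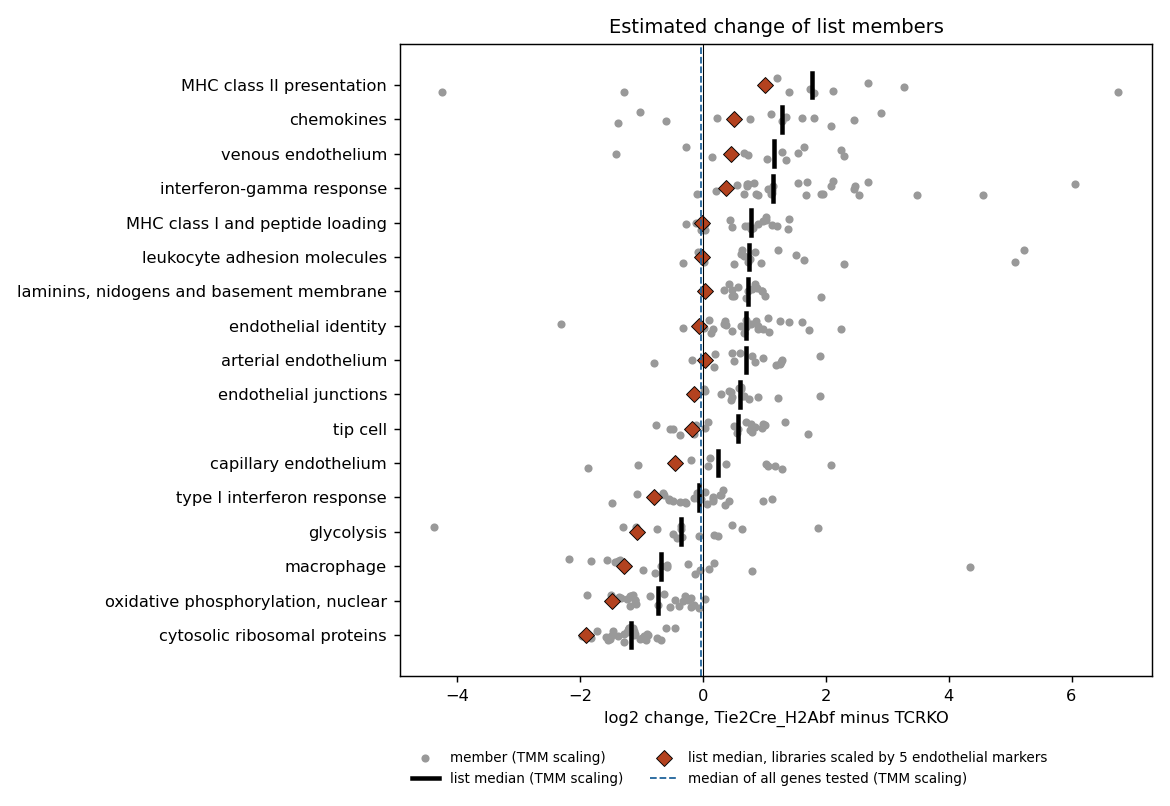
Log2 change of each tested member (grey points) of 17 gene lists, with the list median under the usual scaling (black bar) and with libraries scaled by 5 endothelial markers (red diamond). The dashed line is the median of all genes under the usual scaling, -0.04. With endothelial scaling that median is -0.81, and the red diamonds are read against it. Gaps to the median of all genes are given here under the usual and then under endothelial scaling. They are 1.81 and 1.82 for class II, 1.33 and 1.32 for chemokine, 1.2 and 1.27 for venous genes. For interferon-gamma genes they are 1.18 and 1.19, for arterial genes 0.74 and 0.85, and for basement membrane genes 0.78 and 0.85. The ribosomal gaps are -1.13 and -1.09, and those of nuclear oxidative phosphorylation -0.7 and -0.67.

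The medians of the other vessel lists were smaller, at 0.25 for capillary, 0.57 for tip cell, 0.60 for junction and 0.70 for arterial genes, and -0.46, -0.18, -0.14 and 0.04 with endothelial scaling. Of 27 endothelial identity genes, a list that holds the 5 scaling markers, 25 had a higher estimate. The median was 0.70, and -0.06 when scaled, with gaps to all genes of 0.74 and 0.75. Pecam1 stood at 1040, 909, 1140 and 1360 CPM against 826, 756 and 534 CPM, and Cdh5, VE-cadherin, at 1750, 1290, 1820 and 1910 CPM against 1000, 1000 and 719 CPM. Eng, the endoglin co-receptor of TGF-beta ligands, had a log2 change of 1.25 ± 0.33 and Plvap, the protein of fenestral diaphragms, one of 1.72 ± 0.55. Plvap stood at 1130, 792, 1300 and 1660 CPM against 413, 523 and 176 CPM. Erg went the other way with overlap, at 175, 98.6, 98.9 and 131 CPM against 211, 166 and 98 CPM, and Tek, the Tie2 receptor whose promoter drives the Cre, was alike at 31.5 to 58.7 CPM against 34.6 to 43.9 CPM.

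Arterial genes had a median of 0.70 (13 of 16 with a higher estimate), junction genes 0.60 (16 of 16), tip cell genes 0.57 (15 of 21) and capillary genes 0.25 (8 of 12). With endothelial scaling these medians were 0.04, -0.14, -0.18 and -0.46, where the median of all genes was -0.81. Their gaps to all genes were 0.74, 0.64, 0.61 and 0.29, and with this scaling 0.85, 0.67, 0.63 and 0.35. The gap junction protein Gja5 stood at 75.4, 67.4, 120 and 58 CPM against 47.5, 8.79 and 7.96 CPM, a log2 change of 1.90 ± 0.64. The receptor Notch1 and the arterial ligand Efnb2 had estimates of 1.25 and 1.19. Notch2, by contrast, stood at 7.08, 9.48, 16.9 and 8.11 CPM against 59.4, 41.5 and 35.2 CPM, a change of -2.13 ± 0.68 (adjusted p = 0.851, edgeR). Among tip cell genes the Notch ligand Dll4 had an estimate of 0.85 and Pdgfb, which recruits pericytes, one of 0.98. Among capillary genes Cd300lg had an estimate of 1.18, Car4 of 2.08, Aqp1 of 1.02 and the VEGF receptor Kdr of 1.06. No gene of these lists passed (edgeR).

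Basement membrane genes were higher by estimate in 15 of 15, with 10 wholly above TCRKO, against 47.2% and 6.63% of all genes. Their median was 0.74, and 0.04 with endothelial scaling. Col15a1, a collagen of the outer basement membrane, stood at 223, 108, 143 and 154 CPM against 53.5, 47.9 and 22.7 CPM, a log2 change of 1.92 ± 0.42 (adjusted p = 0.194, edgeR). The collagen IV chains Col4a1 and Col4a2 had estimates of 1.01 and 0.96, and the laminin chain Lama5 one of 0.96. Timp3, a matrix-bound metalloprotease inhibitor, had an estimate of 1.57 ± 0.36, and fibronectin (Fn1) stood at 2050, 418, 709 and 975 CPM against 277, 394 and 219 CPM. Other collagens had a median of -1.02 that rested on TCRKO_9767, being 0.52 without it. Col6a2 stood at 2.12, 2.37, 0.89 and 2.03 CPM against 12.1, 19.6 and 20.7 CPM, and Col6a1 and Col5a1 were highest in TCRKO_9766.

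On the other side, cytosolic ribosomal protein genes lay lower together. All 30 had an estimate below 0, 18 at an unadjusted p under 0.05 against 2.25% of all genes, and 23 lay wholly below TCRKO against 5.3%. None passed the adjusted test, and the median was -1.17, or -1.90 with endothelial scaling. Rpl13 stood at 18.1, 35.4, 22.8 and 22.6 CPM against 48.2, 84.1 and 78.2 CPM, a log2 change of -1.50 ± 0.52. Rpsa, a small subunit protein, stood at 109, 172, 122 and 139 CPM against 315, 286 and 293 CPM, a change of -1.14 ± 0.40. Rpl32 and Rps27a had estimates of -1.73 and -1.55, and Rpl10 stood at 22.3, 29, 25.6 and 12.3 CPM against 64.3, 65.2 and 91.4 CPM. Summed over the list, Tie2Cre_H2Abf_9582 was highest of its group, at 2320 CPM against 1430 to 1530 CPM in the other 3 and 2860 to 3780 CPM in TCRKO. Ribosomal protein genes have many processed pseudogenes, so their reads are uncertain.

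Nuclear genes of oxidative phosphorylation had a median of -0.74, with 26 of 27 estimates below 0 and 5 genes wholly below TCRKO, against 5.3% of all genes. At an unadjusted p under 0.05, 1 of the 27 was lower, near the 2.25% of all genes. The complex III subunit Uqcrb and the complex IV subunits Cox5b and Cox4i1 had estimates of -1.89, -1.37 and -1.10, and the ATP synthase subunit Atp5l one of -1.50. The 12 tested genes of the mitochondrial genome had a median of -0.39, all below 0. In glycolysis the median was -0.35, with Pfkfb3, the activator of the pathway in sprouting endothelium, on the other side at 221, 67.7, 87.7 and 142 CPM against 55.3, 31 and 19.8 CPM. Tpi1, Pgk1 and Ldha, enzymes of the pathway, lay wholly below TCRKO, as did 5.3% of all genes, with estimates of -1.31, -1.09 and -0.75. Of stress genes, the chaperones Hsp90aa1 and Hspb1 had estimates of -1.10 and -1.42 and Hspa1b one of -2.34, while the immediate early gene Fosb had one of 1.01. The list of immediate early and heat shock genes had a median of 0.26, and -0.49 with endothelial scaling.

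In Tie2Cre against WT, which likewise sets library numbers beginning 95 against numbers beginning 97 and shares no library with this comparison, the median over all genes was 0.02. There the medians were -0.28 for the interferon-gamma list, -1.07 for class II, 0.50 for venous genes and -0.41 for basement membrane. The ribosomal protein median was 0.67 and that of nuclear oxidative phosphorylation 0.61, against -1.17 and -0.74 here. These are descriptions, and the part of the number series in either comparison cannot be told apart from the host.

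Macrophage RNA was lower in 3 of the 4 Tie2Cre_H2Abf libraries than in any TCRKO library. The summed level of the 19 macrophage genes was 158, 929, 339 and 128 CPM against 1020, 437 and 783 CPM, so Tie2Cre_H2Abf_9582 lies among the TCRKO values. Of the 19 genes 4 had a higher estimate, 4 were lower at an unadjusted p under 0.05, and 0 lay wholly below TCRKO, against 2.25% lower at that p and 5.3% wholly below among all genes. The median was -0.69, or -1.82 without Tie2Cre_H2Abf_9582. Csf1r, the receptor that macrophages need to survive, stood at 7.61, 63.9, 28.3 and 4.2 CPM against 166, 23 and 85.5 CPM. Cd68 stood at 16.3, 44.2, 6.76 and 11.3 CPM against 63.6, 28.5 and 58.7 CPM. Tyrobp and Fcer1g, adaptors of myeloid receptors, had estimates of -2.18 and -1.43, while Adgre1 (F4/80) had one of -0.58. C1qa stood at 5.49, 51.5, 18 and 7.38 CPM against 30.4, 16.4 and 16.8 CPM. None of the defining markers Csf1r, Cd68, Adgre1 and C1qa is at 0 in any library. The largest decreases by p included Lgals3, which macrophages express strongly, at 11.2, 50.6, 12.1 and 10.3 CPM against 71.6, 82.3 and 97.1 CPM. Gpnmb, another gene of tissue macrophages, stood at 9.21, 30.5, 4.09 and 3.91 CPM against 23.2, 64 and 68.9 CPM.

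Set against endothelial RNA within each library, the interferon-gamma list still separated the groups. Per 100 counts of the 5 endothelial markers, a measure that needs no scaling between libraries, the interferon-gamma list gave 111, 73.7, 55.6 and 88.9 counts against 47.3, 48.6 and 54.2. All 4 Tie2Cre_H2Abf libraries lie above all 3 TCRKO libraries, Tie2Cre_H2Abf_9583 by little. On the same base the macrophage list gave 4.62, 35.1, 9.54 and 3.2 counts against 43.7, 20.3 and 50.2. Tie2Cre_H2Abf_9582 lies among the TCRKO libraries on this measure, and the rest of its group lies below all of them. The part of macrophage RNA in the difference of the interferon-gamma list, or of single genes, was not tested.

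**Figure D4:**
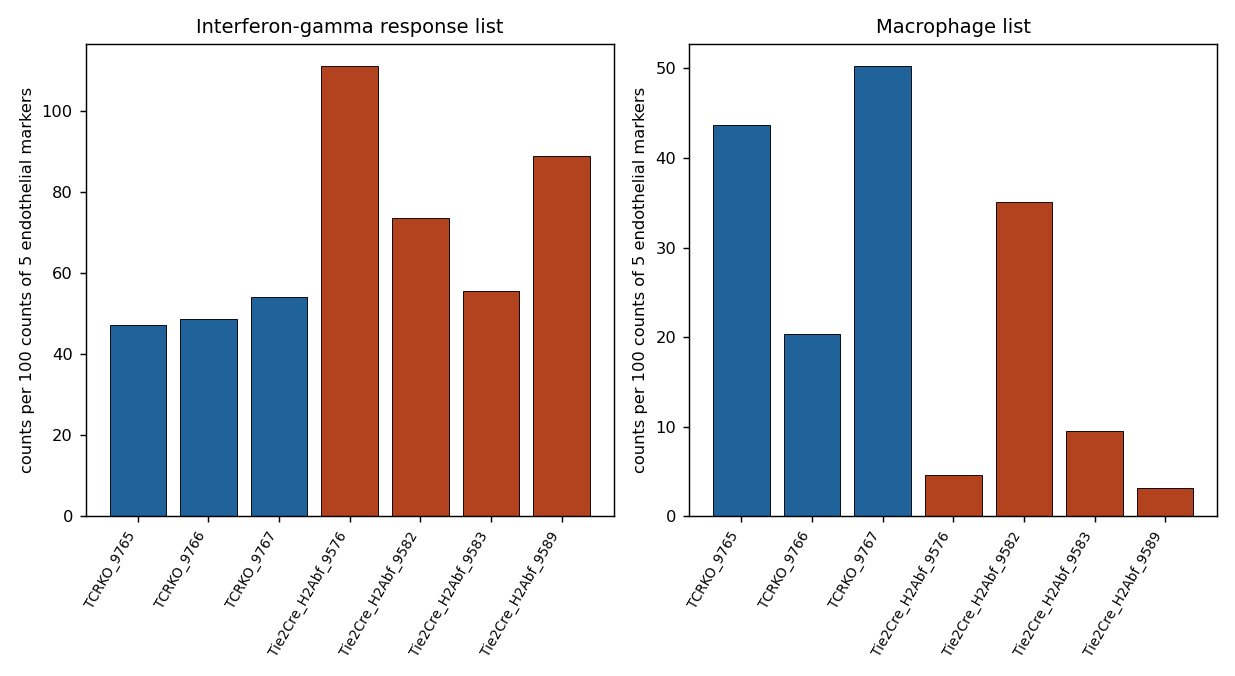
Counts of the interferon-gamma list (left) and of the macrophage list (right) per 100 counts of 5 endothelial markers in each library, with TCRKO in blue and Tie2Cre_H2Abf in red. The interferon-gamma bars run from 55.6 to 111 in Tie2Cre_H2Abf and from 47.3 to 54.2 in TCRKO, while the macrophage bars overlap, with Tie2Cre_H2Abf_9582 at 35.1.

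Defining markers of most other cell types were low. The summed T cell list ran from 5.93 to 21.7 CPM against 11.8 to 13.5 CPM, and the NK and innate lymphoid list from 0 to 5.34 CPM against 0.862 to 4.32 CPM, with Ncr1 and Klrb1c at 0 in 5 and 6 of the 7 libraries. B cell genes reached at most 10 CPM in sum, and the neutrophil sum of at most 38.4 CPM was almost all Csf3r, with S100a8 and S100a9 at 0 throughout. Epcam and Krt18 were at 0 in all 7 libraries, and Krt8 reached 15.4 CPM in TCRKO_9766. Fibroblast genes summed to 11.7 to 31.3 CPM against 41.8 to 126 CPM. Their median was -1.64, or 0.10 without TCRKO_9767, with Pdgfra at 0, 0, 0.356 and 0 CPM against 0, 5.46 and 9.09 CPM. Mural cell genes summed to 661, 504, 575 and 778 CPM against 361, 469 and 289 CPM, wholly above TCRKO. Most of that sum was Mcam, an adhesion molecule that endothelium also expresses, at 618, 443, 472 and 743 CPM against 325, 428 and 258 CPM. Their median was 0.94 with 0 members at an unadjusted p under 0.05, and Pdgfrb reached at most 4.09 CPM and Acta2 at most 8.32 CPM. The platelet sum of 130 to 314 CPM against 118 to 192 CPM was mostly Itgb3, an integrin chain that endothelium also expresses, while Pf4 reached at most 2.2 CPM. Prox1 and Lyve1 placed lymphatic endothelium at a low level in both groups, at most 3.38 and 10.6 CPM.

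Further genes with small p but no call were Ccnd2, the cyclin D2 of the G1 phase, at 15.6, 15.6, 6.94 and 12.6 CPM against 49.3, 36.5 and 62.3 CPM. Angptl2, an angiopoietin-like secreted protein, stood at 3.54, 13.5, 4.98 and 7.09 CPM against 19.2, 86.7 and 38.9 CPM. Rgs2, a brake on G protein signalling, had an estimate of -1.56 ± 0.53. In the TNF and NF-kappaB list, with 21 genes and a median of 0.19, the receptor Tnfrsf1a stood at 103, 120, 139 and 167 CPM against 74, 62.7 and 52.5 CPM, Nfkb1 and Relb had estimates of 0.92 and 1.27, and the inhibitor Nfkbie one of -1.29. F11r, a junctional adhesion molecule, had an estimate of 0.75, and -0.02 with endothelial scaling, where the median of all genes was -0.81.

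Set beside the other 4 backgrounds, the genes that rose were lowest by median in TCRKO. Their calls come from this comparison, which favours a low TCRKO and a high Tie2Cre_H2Abf level. Gbp5, not called, had a lower median in CD8KO, at 15.2 CPM, than in TCRKO, at 24.1 CPM. Gbp2, Wars, Serpina3f and Serping1 were highest by median in Tie2Cre_H2Abf. Gbp2 had a median of 62.5 CPM in TCRKO, 103 in CD8KO, 145 in Tie2Cre, 212 in WT, 265 in CD4KO and 324 in Tie2Cre_H2Abf. The 3 TCRKO values lie below all other 17 libraries, while the Tie2Cre_H2Abf range of 169 to 406 CPM overlaps those of Tie2Cre, WT and CD4KO. Wars followed the order TCRKO, Tie2Cre, CD8KO, WT, CD4KO and Tie2Cre_H2Abf by median, at 35, 54, 62.2, 117, 144 and 226 CPM, and neighbours in this order overlap except CD8KO and WT. Serping1 had medians of 3.18 CPM in TCRKO, 15.4 in CD8KO, 24.3 in Tie2Cre, 27.4 in WT, 51.1 in CD4KO and 117 in Tie2Cre_H2Abf, whose lower pair lies within the WT range. Serpina3f in TCRKO, at most 1.72 CPM, overlaps CD8KO alone, which begins at 1.39 CPM.

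Vwf separates TCRKO from the rest in the same way, at 89.6 to 134 CPM against a lowest value of 175 CPM elsewhere. Cd74 varies widely in WT, from 227 to 1510 CPM, so that the Tie2Cre_H2Abf range of 333 to 960 CPM lies inside it. The interferon-gamma list per 100 endothelial marker counts had medians of 45.9 in CD8KO, 48.6 in TCRKO, 64.5 in Tie2Cre, 69.2 in WT, 81.3 in Tie2Cre_H2Abf and 93.8 in CD4KO. The ranges of CD8KO and TCRKO do not overlap, at 33 to 46.8 and 47.3 to 54.2, and those of all the others overlap their neighbours. No test was made between these backgrounds here.

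**Figure D5:**
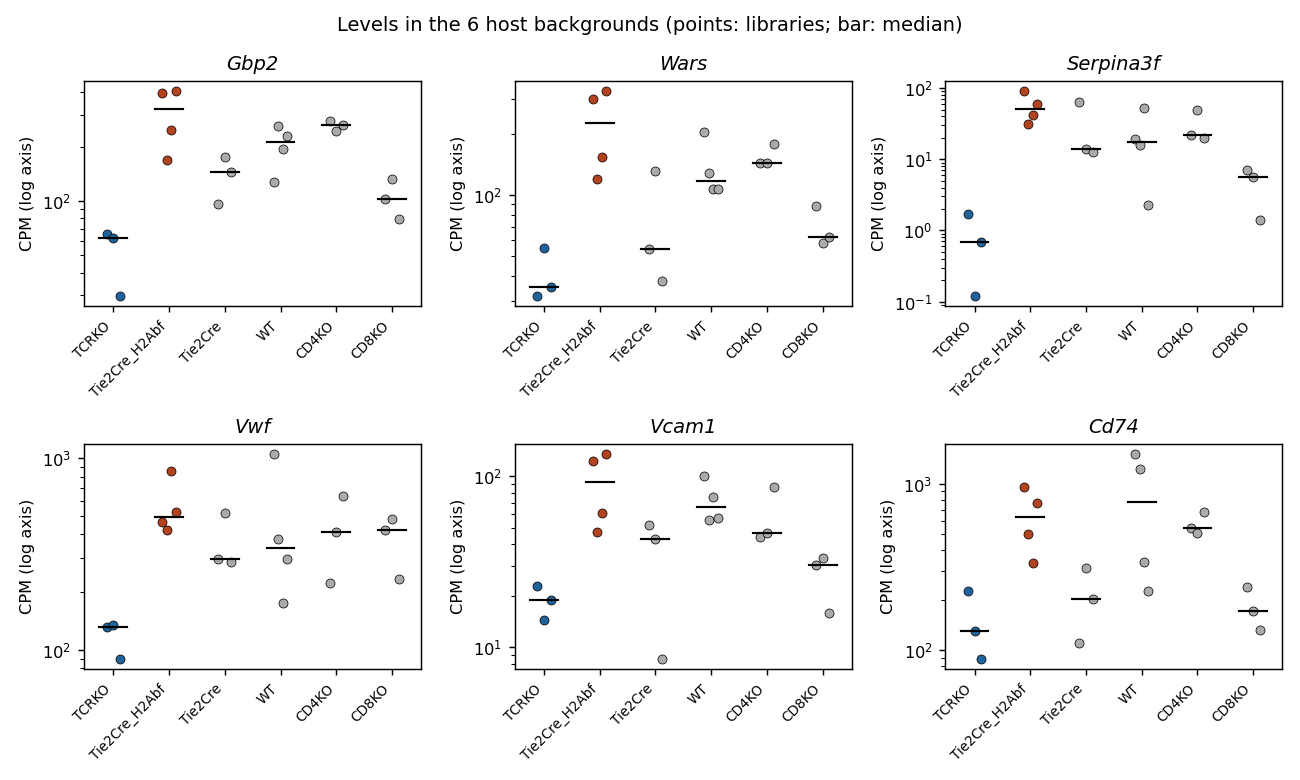
Levels of 6 genes in CPM (log axis) in the 20 libraries of the 6 host backgrounds, with points for libraries and a bar at the median. The 6 genes are among those with a small p in Tie2Cre_H2Abf against TCRKO, which favours a low TCRKO level. TCRKO (blue) is lowest by median in all 6 panels, and Tie2Cre_H2Abf (red) overlaps WT in each of them. Cxcl9, not drawn, has a lower median in CD8KO, at 40.8 CPM, than in TCRKO, at 55 CPM.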

How the data were processed

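Per the labels' protocols, RNA of sorted CD31+ cells was amplified with MATQ and made into Nextera XT libraries, which do not mark strand, so reads of overlapping antisense genes are mixed. The submitters' processing notes name GRCm38, bcl2fastq 2.17, RSEM 1.2.28, DESeq2 and STAR, the last with no version. The authors deposited, per library, RSEM's expected counts, TPM and effective lengths for 46983 gene IDs. Expected counts (4.45% not whole) were rounded. Effective lengths, another deposited quantity, served as offsets in an alternative. The deposited TPM served for the ratios of H2-Ab1 to other class II genes.

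A quasi-likelihood model of all 6 groups (20 libraries) was fitted with edgeR 4.0.16 in R 4.3.3, with TMM factors and filterByExpr, which kept 14875 genes. P-values were adjusted by Benjamini-Hochberg over all of these, with a threshold of 0.05. DESeq2 1.42.0 and limma 3.58.1 (voom) were alternatives. The scripts were tested on simulated data. Replicate pairs differed by 15.9 to 92.0 chi-square per degree of freedom, far beyond sampling noise. Spearman correlations of log2 CPM ran from 0.76 to 0.917 within the groups and from 0.741 to 0.872 between them, so these ranges overlap. The TCRKO pairs stood at 0.839, 0.76 and 0.783, below the 0.872 of TCRKO_9766 with Tie2Cre_H2Abf_9576. The members, the 42 gene lists and the rule for names were chosen with earlier results of these data known. Named genes are 10 fixed ones, 8 per direction by p with a mean of at least 10 CPM, and in each of 22 lists the 4 with the smallest p and at least 1 CPM. Genes named beyond these, such as Slamf8, Irgm1, Ackr1, Nr2f2, Ctss, Timp3 and Fn1, were chosen after their values were seen. Promoter sequences are RefSeq's (GRCm38.p6). One of the genes looked at is not reported here.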

Additional observations from a re-analysis of the deposited data

Results flagged for a closer look

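In the 4 Tie2Cre_H2Abf libraries 1 value stood far from the other 3 by Dixon's criterion in 12 of the 102 genes and 42 lists looked at, and chance alone gives about 1 in 20. Of the 12, 6 were in Tie2Cre_H2Abf_9582. It held Lgals3 at 50.6 CPM against 10.3 to 12.1 CPM, Tyrobp at 17.3 CPM against at most 3.01 CPM, Atp5l at 6.94 CPM against 2.89 to 3.56 CPM and a neutrophil sum of 15.2 CPM against 2.75 to 4.63 CPM. Its ribosomal protein sum was 2320 CPM against 1430 to 1530 CPM, and its interferon receptor and JAK-STAT sum was 832 CPM against 1010 to 1030 CPM. In Tie2Cre_H2Abf_9583, the library of its group with the largest satellite share, Cd3e was at 1.96 CPM, Cd4 at 3.74 CPM and Pdgfra at 0.356 CPM, each against 0 in the other 3. Its T cell sum was 21.7 CPM against 5.93 to 6.66 CPM, and its NK and innate lymphoid sum 5.34 CPM against 0 to 0.868 CPM. Fosb was at 98.1 CPM in Tie2Cre_H2Abf_9576 against 49.3 to 54.5 CPM.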

How the results depend on the processing

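Higher and lower calls, 5 and 1 here, became 70 and 11 with DESeq2, 58 and 101 with limma-voom, 14 and 3 without a filter, 9 and 1 with a filter of 5 CPM, 30 and 22 with only the 7 libraries, and 11 and 1 without the satellite-rich WT_9771 and Tie2Cre_9501. They were 3 and 1 with effective-length offsets and 3 and 1 with abundant RNA and satellite genes removed. Leaving out each library in turn gave 0 to 4 higher and 1 to 2 lower. Added after seeing the data were scaling by 5 endothelial markers, with 0 higher and 1 lower (90 and 1247 at an unadjusted p under 0.05, against 383 and 334), and leaving out TCRKO_9767 and Tie2Cre_H2Abf_9583, with 0 and 1. For the 5 higher genes, the cause of the lost calls was not tested, beyond the fewer libraries fitted. Of 1827 values of named genes over the alternatives 4 changed sign. Cd3e ran from -1.85 (without Tie2Cre_H2Abf_9583) to 4.88 with 1 library left out and was -2.24 without the pair, and with endothelial scaling F11r was -0.02 and Pecam1 -0.09. List medians moved by more than the spread between libraries in 34 of 37 lists with endothelial scaling and in at most 7 under any other alternative. Endothelial scaling also moved the median of all genes, from -0.04 to -0.81. The gap to that median went from 1.18 to 1.19 for the interferon-gamma list and from -0.65 to -0.47 for the macrophage list. No paired analysis was possible because the groups share no library number.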

Other observations

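The VEGF receptor genes Flt1 and Flt4 act in blood and lymphatic vessel growth. Both had every Tie2Cre_H2Abf library above every TCRKO library, as did 6.63% of all genes. Flt1 stood at 556, 480, 593 and 786 CPM against 346, 354 and 219 CPM, and Flt4 at 141, 128, 173 and 176 CPM against 70.6, 96.1 and 72.5 CPM. Pgf, a ligand of Flt1, overlapped, at 63.7, 19, 17.8 and 59.2 CPM against 61.5, 80.2 and 62.7 CPM. The list of VEGF ligands and receptors had a median log2 change of 0.85 over 8 tested genes, and 0.09 with endothelial scaling. Ptprb, the phosphatase that restrains Tie2, stood at 588, 635, 786 and 764 CPM against 440, 287 and 261 CPM, and Bmpr2, a BMP receptor, at 96.3, 116, 162 and 131 CPM against 65.2, 47 and 76.6 CPM. Epas1, the hypoxia-inducible factor of endothelium, stood at 371, 229, 285 and 364 CPM against 154, 107 and 152 CPM, in a hypoxia list whose median was -0.21. None of these genes passed edgeR's adjusted test, and they were chosen after their values were seen.

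Medians of the other lists were 0.43 for angiopoietins and Tie receptors, 0.63 for Notch signalling, 0.61 for TGF-beta and BMP signalling and 0.33 for metalloproteases and inhibitors. With endothelial scaling these were -0.34, -0.17, -0.18 and -0.42, all above the -0.81 of all genes under that scaling. Microfibril genes had a median of 0.18, and -0.08 without TCRKO_9767. Cell cycle genes had a median of -0.20 with 11 of 27 estimates above 0, and Mki67, a marker of dividing cells, stood at 54.5, 44.7, 56.4 and 55 CPM against 30.1, 38.8 and 32.1 CPM. Dendritic cell genes had a median of -0.66 over 6 tested genes, platelet genes one of -0.85 over 5, and lymphatic genes one of 0.15 over 9. Epithelial genes had a median of -0.82 over 5 tested genes, and adipocyte and erythroid genes had 2 and 1 tested members. Leaving out 1 library changed the sign of several of these medians. Without TCRKO_9767 they were 0.09 for dendritic cell, 0.26 for epithelial and 0.08 for platelet genes. The cell cycle median was 0.18 without TCRKO_9766, and the lymphatic median was -0.25 without Tie2Cre_H2Abf_9589.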
